A study of Mus musculus with 2 samples.

Results

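Solute carriers are membrane proteins that move sugars, amino acids, ions, metals, vitamins and metabolites across membranes, and their gene symbols begin with Slc followed by a family number. Of 32285 genes in the RNA count table, 362 had a symbol of that form. The set described here is the 180 carriers with at least 1000 UMIs (unique molecular identifiers, each standing for 1 captured RNA molecule) summed over all barcodes. Slc22a3, Slc22a18 and Slc38a4 were left out by name, 179 carriers were under 1000 UMIs, and 2 of those were at 0. The total UMI count chose the set, so totals are given as description only. Just inside the limit stood Slc39a13 with 1001 UMIs, Slc4a5 with 1040 and Slc34a2 with 1049. Just outside it stood Slc10a1 with 994, Slc26a10 with 992 and Slc44a3 with 959. By the same limit, 11195 genes of any kind passed, and these serve as the background, for promoter accessibility those of them with a promoter peak. Motif shares are instead set against all promoter windows.

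Carriers work by alternating access: the protein opens to one side of the membrane, binds its substrate, and opens to the other side, either down the substrate's gradient or coupled to sodium, protons or an exchanged solute. Before a placental circulation exists, the visceral endoderm, an absorptive epithelium that covers the mouse egg cylinder, and the trophoblast of the extraembryonic ectoderm lie between the epiblast and the mother. The visceral endoderm takes up nutrients at its outer face by endocytosis and by carriers, much as gut and kidney epithelia do later.

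The series holds 1 nuclear RNA library and 1 chromatin accessibility library, made from the same nuclei of pooled mouse embryos at embryonic day 7.0. All 15341 barcodes occurred in both libraries, and nothing in the files ties a nucleus to its embryo. The labels conflict: title, age and protocol name E7.0 embryos, while tissue, source, cell type and strain entries name small intestine, distal colon, goblet cells and RedMUC298trTg, with no genotype or treatment beyond that. Set against markers, a list of 8 goblet and intestinal epithelium genes summed to at most 105 CPM (UMI counts scaled to 1000000 per class) in any cluster of at least 100 nuclei, against 15364 for visceral endoderm genes in their own class. With 1 library per assay there were no replicates and no test of any difference. Every interval below is a 95% interval that covers counting error only and not differences between embryos, nuclei or libraries.

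After filtering, 12796 nuclei remained, with a median of 10471 UMIs. They were clustered on accessibility alone, so that no RNA count entered the clusters, and clusters were named from RNA marker lists. Named classes were epiblast-like (3819 nuclei), primitive streak-like (841), embryonic mesoderm-like (1292), haemato-endothelial progenitor-like (566), anterior streak-like (1014, for anterior streak, node and definitive endoderm), visceral endoderm-like (638) and extraembryonic ectoderm-like (1244). A parietal endoderm-like cluster of 26 nuclei was too small for calls. Clusters 3, 6, 9, 14, 16 and 17 stayed unnamed. Of these, cluster 3 (926 nuclei, led by Sfrp5 and Gckr) and cluster 9 (701 nuclei, led by Aqp8, Slc9a3 and Fmo1) had visceral endoderm genes as their leading list at 10434 and 10372 CPM, so visceral endoderm-type nuclei also lie outside the class that bears the name. In cluster 3 the next list was anterior streak, node and definitive endoderm (mean log2 fold 1.37, against 1.79 for the leading list). In cluster 9 it was parietal endoderm (0.859 against 1.40). Cluster 16 (359 nuclei) had ectoplacental cone and giant cell genes as its leading list, and its top 10 genes by fold held Prl3d3, Prl7a1 and Krt14 beside the haemoglobins Hba-a1, Hba-a2 and Hbb-bs and the endothelial cadherin Cdh5. Cluster 6 (827 nuclei, 9944 CPM of the visceral endoderm list) had a median of 1989 UMIs. Cluster 14 (377 nuclei) had primitive streak genes as its leading list, at 1034 CPM. Its embryonic mesoderm genes summed to 1260 CPM, against 1488 in the class of that name.

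Ranges over other classes below cover the named classes only, unless a cluster is given: unnamed clusters 3, 6 and 9 also held many of the visceral endoderm-like carriers. Cluster 14 held several embryonic mesoderm-like carriers, and cluster 16 several extraembryonic ectoderm-like ones, at levels near those of the classes. A carrier is called higher in a class when its pooled level there was at least 2-fold that in all other nuclei, its interval lay above 1 and it had at least 30 UMIs in the class. It is called lower when all other nuclei had at least 2-fold its level, with an interval below 1. By this rule 84 of 180 carriers (46.7%) were higher in at least 1 named class, against 26.2% of all genes with 1000 UMIs, and 91 (50.6%) were lower in at least 1, against 33.8%. In 79 carriers the higher call fell in 1 class, in 5 it fell in several, and 76 carriers were neither higher nor lower in any named class, 42.2% against 62.5% of all genes. The visceral endoderm-like class had 41 carriers higher, 22.8% of the set against a background of 8.41%. The next were extraembryonic ectoderm-like nuclei with 17 (background 5.39%) and epiblast-like nuclei with 15 (5.77%). Haemato-endothelial progenitor-like nuclei had 6 (3.55%), embryonic mesoderm-like 5 (3.48%), anterior streak-like 3 (2.84%) and primitive streak-like 2 (1.37%). In those last 4 classes the share of carriers called higher was under the background. The 1000-UMI limit counted all barcodes, so a carrier could enter the set through the class where it was high. Slc34a2, as an example, had 1049 UMIs in all, with 14.5 CPM in visceral endoderm-like nuclei and 0.598 to 1.27 in the other named classes. The background genes passed the same limit. With doublet calls kept, the epiblast-like class shrank to 1846 nuclei and 8 of its 15 calls remained, while anterior streak-like nuclei had 6 calls in place of 3. The primitive streak-like calls numbered 0 with equal weight per nucleus or against other named classes only.

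**Figure D1:**
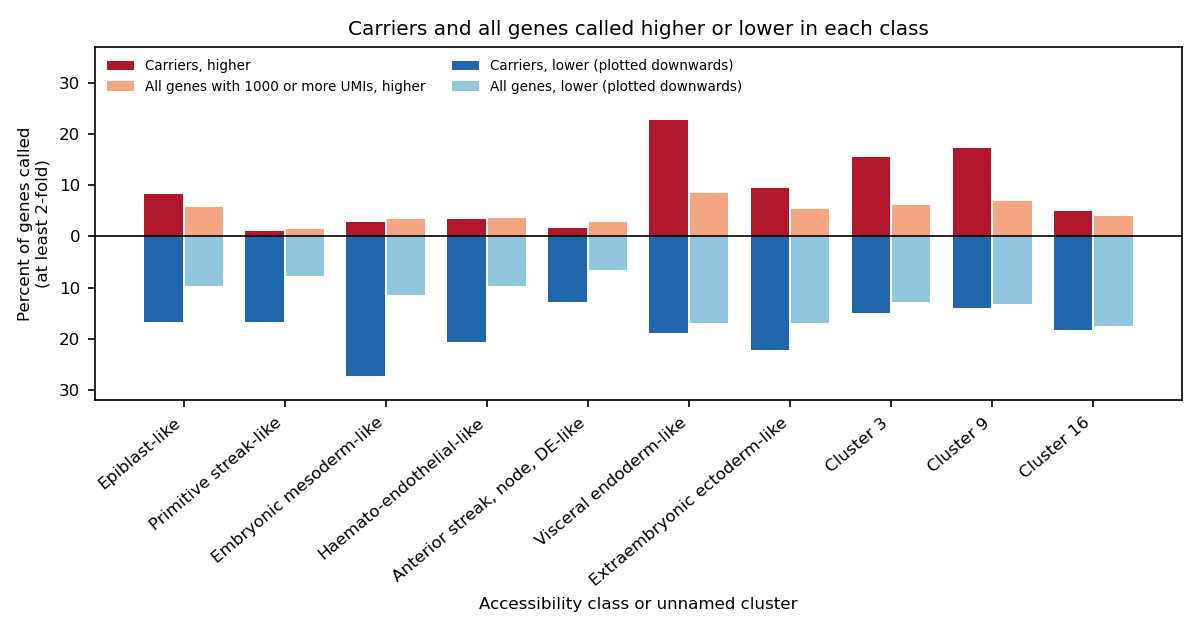
Bars give the percent of the 180 carriers (dark) and of the 11195 background genes (light) called at least 2-fold higher (upwards) or lower (downwards) in each named class and in unnamed clusters 3, 9 and 16 against all other nuclei. The bar for carriers higher in visceral endoderm-like nuclei reaches 22.8%, beside 8.41% of all genes.

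Of the unnamed clusters, cluster 3 had 28 carriers higher (background 6.23%) and 27 lower (12.9%), and cluster 9 had 31 higher (7.01%) and 25 lower (13.1%). The shallow cluster 6 had 19 higher (2.93%) and 10 lower (6.2%), cluster 14 had 4 higher (2.63%) and 40 lower (8.08%), cluster 16 had 9 higher (4.05%) and 33 lower (17.5%), and cluster 17 had 1 higher (3.15%) and 66 lower (23.7%).

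The 5 classes other than visceral endoderm-like and extraembryonic ectoderm-like are called embryonic here for short, although extraembryonic mesoderm was the next list of the haemato-endothelial progenitor-like class (mean log2 fold 1.78). Lower calls were spread over these classes. They numbered 49 in embryonic mesoderm-like nuclei (27.2% of carriers, background 11.4%), 37 in haemato-endothelial progenitor-like (9.75%), 30 each in epiblast-like (9.58%) and primitive streak-like (7.62%), and 23 in anterior streak-like (6.45%). Extraembryonic ectoderm-like nuclei had 40 (16.9%) and visceral endoderm-like 34 (17%), 22.2% and 18.9% of carriers. The reference for each class was all other nuclei, visceral endoderm-like nuclei and clusters 3, 6 and 9 among them. Lower calls in embryonic classes included carriers called higher in visceral endoderm-like nuclei. In primitive streak-like nuclei these were all the lower sugar (Slc2a2, Slc2a3, Slc37a1) and amino acid carriers (Slc7a9, Slc43a2, Slc38a6, Slc38a9, Slc7a8). In embryonic mesoderm-like nuclei Slc2a1, Slc7a1, Slc1a3 and Slc7a3 were lower without such a call. Summed over the set, carrier RNA made up 13646 CPM in visceral endoderm-like nuclei, 9698 in extraembryonic ectoderm-like and 8973 in epiblast-like, with the lowest sum of the named classes in embryonic mesoderm-like nuclei at 7767. Without Slc2a3, the carrier with the most UMIs, the sums were 11751, 9069.7, 8725 and 7609.6 CPM. The highest of the 7 named levels was in visceral endoderm-like nuclei for 80 carriers (44.4%, against 23.3% of all genes). It was in extraembryonic ectoderm-like nuclei for 30, 16.7% against 25.7%.

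Visceral endoderm markers give a measure of the level found outside their class. The 11 visceral endoderm marker genes summed to 15364 CPM in that class and to between 724 and 846 CPM in the 5 embryonic classes, 4.71% to 5.51% of it. The extraembryonic ectoderm-like class held 2193 CPM, or 14.3%, of which Rhox5 alone gave 1459.9 CPM, above its 350.2 CPM in visceral endoderm-like nuclei. Without Rhox5, left out after its values were seen, the share was 4.88% there and 4.04% to 4.71% in the embryonic classes. For the 41 carriers called higher in visceral endoderm-like nuclei, the median level over the 5 embryonic classes was between 2.54% and 53.5% of the visceral endoderm-like level. Among the single markers the same median ran from 1.11% to 34.9%, with a median of 8.35%. The upper end was Rhox5, and the next marker, Apom, was at 13.2%. For 35 of the 41 carriers it was at or under the Rhox5 value. It lay between 11.9% and 13.1%, under Apom, for Slc43a2, Slc37a1, Slc38a9, Slc39a8 and Slc2a3, and was at most 10% for 11 more. The levels of these carriers in embryonic classes are given as values and not read as expression. The median hides single classes, with Slc37a1 at 34.3% in epiblast-like and Slc39a8 at 33.1% in anterior streak-like nuclei. The 11 were Slc7a8, Slc28a2, Slc13a4, Slc25a21, Slc2a2, Slc16a9, Slc23a1, Slc39a5, Slc7a9, Slc34a2 and Slc38a6. The part of free RNA in any low level was not tested. The other nuclei also hold clusters 3, 6 and 9, and against other named classes only the log2 folds in visceral endoderm-like nuclei were larger: from 3.31 to 4.80 for Slc2a2, 2.98 to 5.07 for Slc13a4, 2.79 to 4.67 for Slc16a9, 2.80 to 3.997 for Slc23a1, 1.97 to 3.12 for Slc39a8, 1.97 to 2.72 for Slc22a23 and 1.80 to 2.64 for Slc2a3. The same change took Slc40a1 in extraembryonic ectoderm-like nuclei from 1.60 to 2.41.

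**Figure D2:**
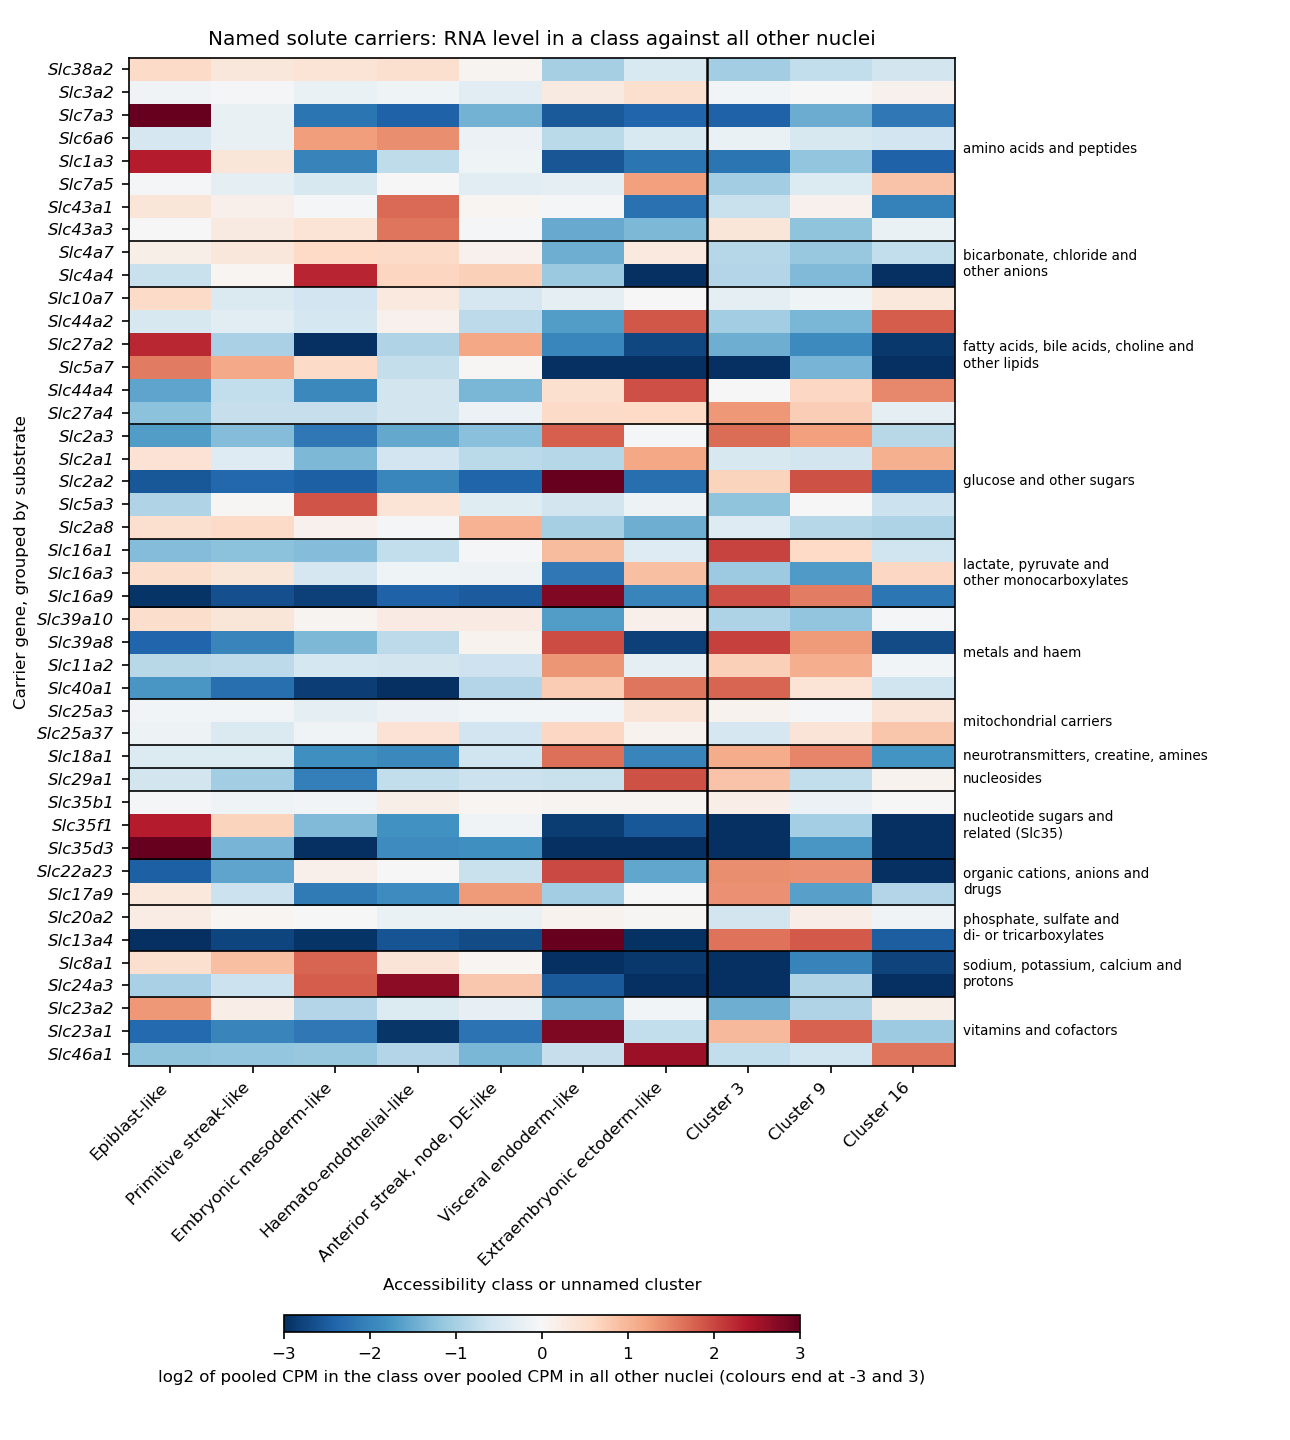
Colours give the log2 ratio of the pooled CPM of 44 named carriers (rows, grouped by substrate) in 7 named classes and unnamed clusters 3, 9 and 16 (columns) to all other nuclei. Red cells run down the visceral endoderm-like column and its neighbours in clusters 3 and 9 for Slc2a2, Slc2a3, Slc16a9, Slc39a8 and Slc13a4, while the epiblast-like column is red for Slc7a3, Slc1a3, Slc35f1 and Slc35d3.

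The promoters of 5 named carriers are shown because their RNA and their promoter peak both stood higher in the same class, by over 1.5-fold at the promoter. They were taken by RNA fold, and not by promoter fold, from the rule-named carriers. These were the 4 largest folds of each class, the carrier with the most UMIs of each substrate list, and carriers picked for their known roles. Slc7a8 and Slc28a2 ranked below those 4 in visceral endoderm-like nuclei and were in neither other group, so they were not candidates. Slc39a8 had a lower RNA fold than Slc7a8 and Slc28a2 and entered only as a carrier picked for its known roles. Slc44a4 and Slc40a1 had lower RNA folds than the 5 shown, and Slc23a1 was not considered because of its chromosome. The bases are the 250 before the transcription start from RefSeq on GRCm38.p6, 5′ to 3′ on the gene's strand, and capitals mark matches to 6 short motifs listed with the accessibility results below. Slc13a4 (a sodium-coupled sulfate carrier, minus strand, chr6:35308127-35308376), Slc16a9 (a monocarboxylate carrier family member, plus strand, chr10:70245026-70245275) and Slc39a8 (a zinc and manganese importer, plus strand, chr3:135825029-135825278, 1 of its 2 starts in the table) were higher in visceral endoderm-like nuclei. Slc1a3 (a glutamate and aspartate carrier, minus strand, chr15:8710808-8711057) and Slc35f1 (an Slc35 family member, plus strand, chr10:52690251-52690500) were higher in epiblast-like nuclei. Slc7a3, which ranked above these by fold, had no entry in the promoter table. Slc35d3 and Slc2a2, with larger RNA folds still, did not meet the promoter condition of over 1.5-fold in their class. Nor did Slc24a3, Slc46a1, Slc4a4, Slc27a2 and Slc22a23, whose RNA folds were above that of Slc39a8.
Slc13a4: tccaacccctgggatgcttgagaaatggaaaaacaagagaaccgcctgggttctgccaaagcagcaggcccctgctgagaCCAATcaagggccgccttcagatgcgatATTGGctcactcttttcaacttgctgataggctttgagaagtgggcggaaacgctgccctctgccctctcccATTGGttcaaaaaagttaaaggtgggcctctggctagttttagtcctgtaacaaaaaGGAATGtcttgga
Slc16a9: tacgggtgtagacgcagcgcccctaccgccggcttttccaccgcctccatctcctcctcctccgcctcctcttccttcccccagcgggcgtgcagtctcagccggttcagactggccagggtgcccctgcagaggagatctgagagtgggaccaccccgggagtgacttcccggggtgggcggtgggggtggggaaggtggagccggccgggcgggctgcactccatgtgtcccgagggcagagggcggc
Slc39a8: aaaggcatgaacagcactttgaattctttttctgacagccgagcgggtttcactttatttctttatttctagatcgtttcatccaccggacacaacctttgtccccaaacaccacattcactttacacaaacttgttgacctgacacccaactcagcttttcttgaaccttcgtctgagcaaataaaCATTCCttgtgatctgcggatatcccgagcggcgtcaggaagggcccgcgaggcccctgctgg
Slc1a3: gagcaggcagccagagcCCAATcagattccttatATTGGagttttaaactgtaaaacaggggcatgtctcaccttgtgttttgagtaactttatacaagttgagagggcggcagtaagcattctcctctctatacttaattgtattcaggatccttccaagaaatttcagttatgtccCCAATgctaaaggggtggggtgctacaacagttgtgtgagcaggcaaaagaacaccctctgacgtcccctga
Slc35f1: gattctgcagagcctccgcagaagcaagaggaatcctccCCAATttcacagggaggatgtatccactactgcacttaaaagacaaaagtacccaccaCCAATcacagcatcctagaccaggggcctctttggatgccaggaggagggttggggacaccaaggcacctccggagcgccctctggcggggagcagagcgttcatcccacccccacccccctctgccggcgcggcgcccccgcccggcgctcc
The capitals in Slc13a4 are 3 NF-Y matches and 1 TEAD match, those in Slc1a3 are 3 NF-Y matches, those in Slc35f1 are 2 NF-Y matches, and that in Slc39a8 is 1 TEAD match. The Slc1a3 window overlapped a peak at chr15:8709999-8710910, which held only the match nearest the start. Slc16a9 held none of the 6.

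Sugar carriers had higher calls in 4 classes. Of 10 members, 4 were higher in visceral endoderm-like nuclei (Slc2a3, Slc2a2, Slc37a1, Slc37a4), 2 in extraembryonic ectoderm-like (Slc2a1, Slc50a1), and 1 each in embryonic mesoderm-like (Slc5a3) and anterior streak-like nuclei (Slc2a8). The shares of all genes higher in these classes were 8.41%, 5.39%, 3.48% and 2.84%. Slc2a3, the high-affinity glucose carrier GLUT3, was at 1895 CPM (interval 1869 to 1922) in visceral endoderm-like nuclei, 628 in extraembryonic ectoderm-like, 279 in anterior streak-like, 272 in primitive streak-like, 248 in epiblast-like, 226 in haemato-endothelial progenitor-like and 158 in embryonic mesoderm-like nuclei. The visceral endoderm-like level was 3.47-fold (interval 3.42 to 3.53) the level of all other nuclei, which include clusters 3 and 9 at 1685 and 1384 CPM. Slc2a1, the basal glucose carrier GLUT1, ran in another order, with 617 CPM in extraembryonic ectoderm-like nuclei (2.24-fold, interval 2.196 to 2.29) and 635 in cluster 16. It was at 389 in epiblast-like, 243 in primitive streak-like, 216 in haemato-endothelial progenitor-like, 185 in anterior streak-like, 179 in visceral endoderm-like and 132 in embryonic mesoderm-like nuclei. The intervals of Slc2a1 in anterior streak-like (177 to 194) and visceral endoderm-like nuclei (171 to 187) overlapped.

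Slc2a2, the low-affinity glucose carrier GLUT2 of liver and gut, had the largest fold of any carrier in visceral endoderm-like nuclei against all other nuclei. With other named classes as the only reference it was not the largest, Slc13a4 being among those above it. Its level was 172 CPM (9.93-fold, interval 9.33 to 10.6), against 5.62 to 7.46 CPM in the other 6 named classes, with cluster 9 at 89.04 and cluster 3 at 42.1. With every nucleus thinned to 5000 UMIs, 53.3% of visceral endoderm-like nuclei had a Slc2a2 UMI (83.2% unthinned), against 2.98% of epiblast-like nuclei (5.97% unthinned), where median depths were 14206 and 9895 UMIs. Slc37a4, which carries glucose 6-phosphate into the endoplasmic reticulum, was at 15.2 CPM and its relative Slc37a1 at 28.98 in visceral endoderm-like nuclei. The Slc37a4 call was lost at resolution 2 and with doublet calls kept. In embryonic mesoderm-like nuclei both were called lower, at 3.62 and 0.737 CPM. Slc5a3, the sodium-coupled inositol carrier, stood at 75.9 CPM in embryonic mesoderm-like nuclei (3.68-fold, interval 3.43 to 3.95) and at 16.1 to 34.5 in the other named classes, with 47.7 in cluster 14. Slc2a8, an intracellular hexose carrier, was at 18.2 CPM in anterior streak-like nuclei, 2.07-fold, a call lost when the class was set against other named classes only, at resolution 2, with RNA clusters, with doublets kept and under stricter depth (log2 fold 0.67 to 0.99). Slc37a3 and Slc45a4 were called in no named class.

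**Figure D3:**
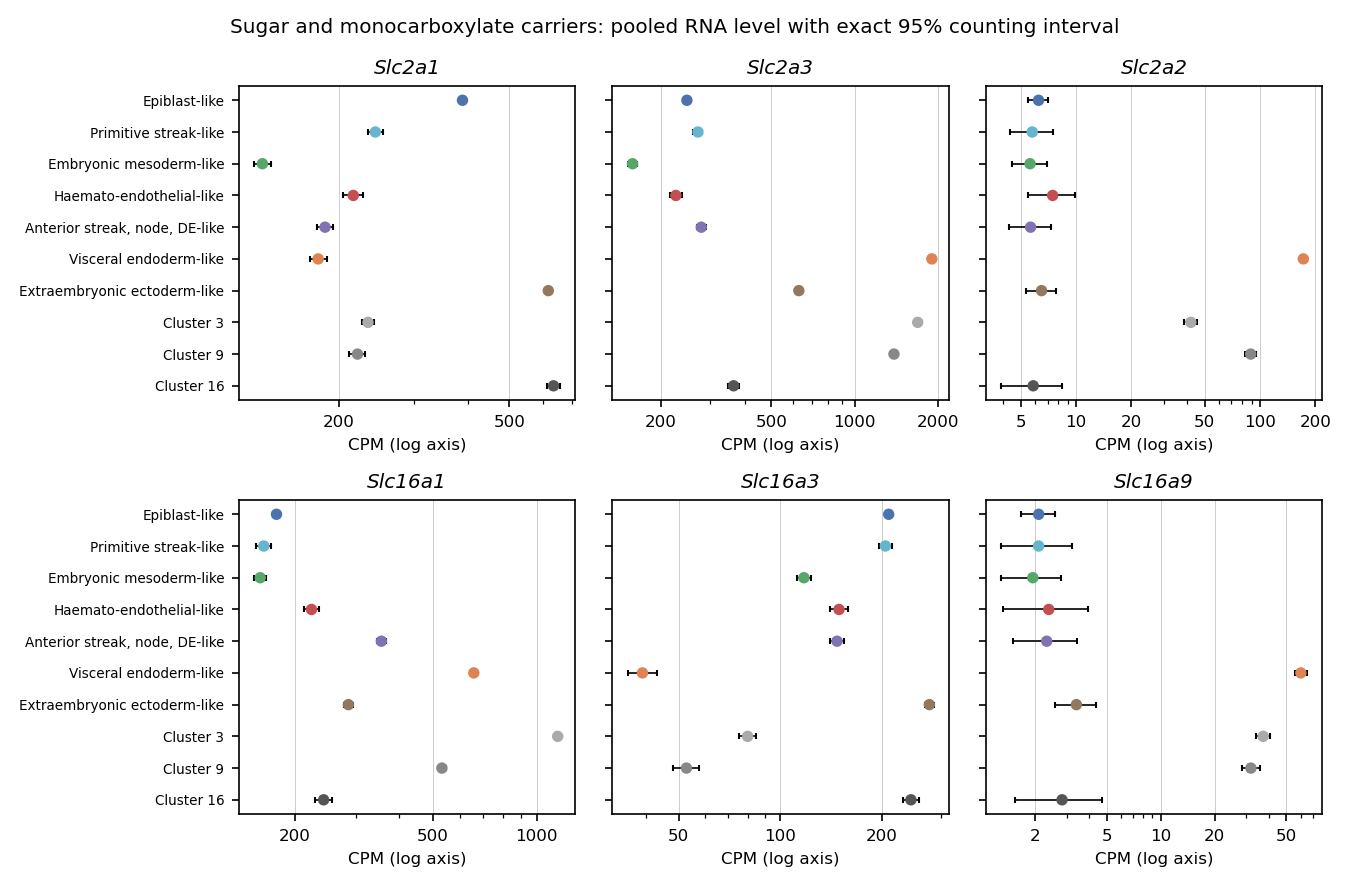
Points give the pooled CPM (log axis) of 3 glucose and 3 monocarboxylate carriers in 7 named classes and 3 unnamed clusters, with bars for the exact 95% Poisson interval. Slc2a1 and Slc16a3 are highest among named classes in extraembryonic ectoderm-like nuclei, while Slc2a3, Slc2a2, Slc16a1 and Slc16a9 are highest among them in visceral endoderm-like nuclei, and Slc16a1 is higher in cluster 3 at 1152 CPM.

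Among 8 members of the monocarboxylate family Slc16, 4 were higher in visceral endoderm-like nuclei (Slc16a10, Slc16a9, Slc16a13, Slc16a6), against 8.41% of all genes. The median log2 fold of the family there was 1.16 against -0.15 for all genes. Slc16a9 was at 60.2 CPM (6.91-fold, interval 6.25 to 7.62) against 1.94 to 3.39 CPM in the other named classes. Slc16a10, a carrier of aromatic amino acids, was at 160.4 CPM against 11.9 to 21.9 in the other named classes and 96.3, 99.6 and 154 in clusters 3, 6 and 9. The lactate carriers MCT1 and MCT4 stood in contrast. Slc16a1 (MCT1) was at 658 CPM in visceral endoderm-like nuclei, 356 in anterior streak-like, 285 in extraembryonic ectoderm-like, 223 in haemato-endothelial progenitor-like and 159 to 177 in the other 3. Its highest level of all was 1152 CPM in cluster 3. The visceral endoderm-like fold against all other nuclei, 1.92, missed the call, and against other named classes only its log2 fold rose from 0.94 to 1.62, past it. Slc16a3 (MCT4) was at 277 CPM in extraembryonic ectoderm-like nuclei, 209.8 in epiblast-like, 205 in primitive streak-like and 118 to 149 in the embryonic mesoderm-like, anterior streak-like and haemato-endothelial progenitor-like classes. In visceral endoderm-like nuclei it was called lower, at 39.03 CPM. Emb, the embigin chaperone of monocarboxylate carriers and no member of the set, was higher in visceral endoderm-like nuclei at 2592 CPM, 2.41-fold all other nuclei.

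Of 26 amino acid carriers, 18 were called higher in a named class, against 26.2% of all genes. Higher calls numbered 8 in visceral endoderm-like nuclei (background 8.41%), and 4 each in epiblast-like (5.77%) and haemato-endothelial progenitor-like nuclei (3.55%). There were 2 in extraembryonic ectoderm-like (5.39%) and 1 in embryonic mesoderm-like nuclei (3.48%). The visceral endoderm-like class also had 10 of the 26 lower (background 17%), and extraembryonic ectoderm-like nuclei 12 (16.9%). The epiblast-like genes were Slc7a3, Slc1a3, Slc6a15 and Slc38a1. Slc7a3, the cationic amino acid carrier CAT3, was at 292 CPM in epiblast-like nuclei (interval 286 to 297, 8.37-fold), 91.3 in primitive streak-like, 41.6 in anterior streak-like and 19.5 to 25.2 in the other 4. Slc1a3 was at 193 CPM in epiblast-like, 101 in primitive streak-like, 73.7 in anterior streak-like, 48.6 in haemato-endothelial progenitor-like, 21.6 in embryonic mesoderm-like and at most 19.5 in the extraembryonic classes. Both genes stepped down from epiblast-like to primitive streak-like to embryonic mesoderm-like nuclei. With doublet calls kept, their epiblast-like log2 folds of 3.06 and 2.36 were 1.9 and 1.43, still past the call. Slc38a1, a sodium-coupled glutamine carrier, was at 316 CPM in epiblast-like nuclei and 27.8 in visceral endoderm-like nuclei, where it was called lower. Its epiblast-like call was lost with doublet calls kept.

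Visceral endoderm-like nuclei had a different set. Slc7a8, the light chain LAT2 that exchanges neutral amino acids at basolateral membranes, was at 296 CPM (6.88-fold, interval 6.58 to 7.19) against 5.16 to 16.6 CPM in other named classes. Slc7a7, the light chain y+LAT1 that exports cationic amino acids, was at 364 CPM against 44.9 to 105. Slc7a9, the cystine and dibasic amino acid exchanger of kidney and gut, was at 40.7 CPM against 2.22 to 3.21. Slc38a6 was at 505 CPM against 38.7 to 69.9, and Slc38a9, the lysosomal arginine-sensing carrier that signals to mTORC1, at 353 against 33.7 to 53.8. Slc43a2, a facilitative carrier of large neutral amino acids, was at 171 CPM against 14.1 to 27.6. Slc36a1 and Slc38a7, both carriers of lysosomal membranes, completed the 8 at 27.1 and 50.1 CPM.

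**Figure D4:**
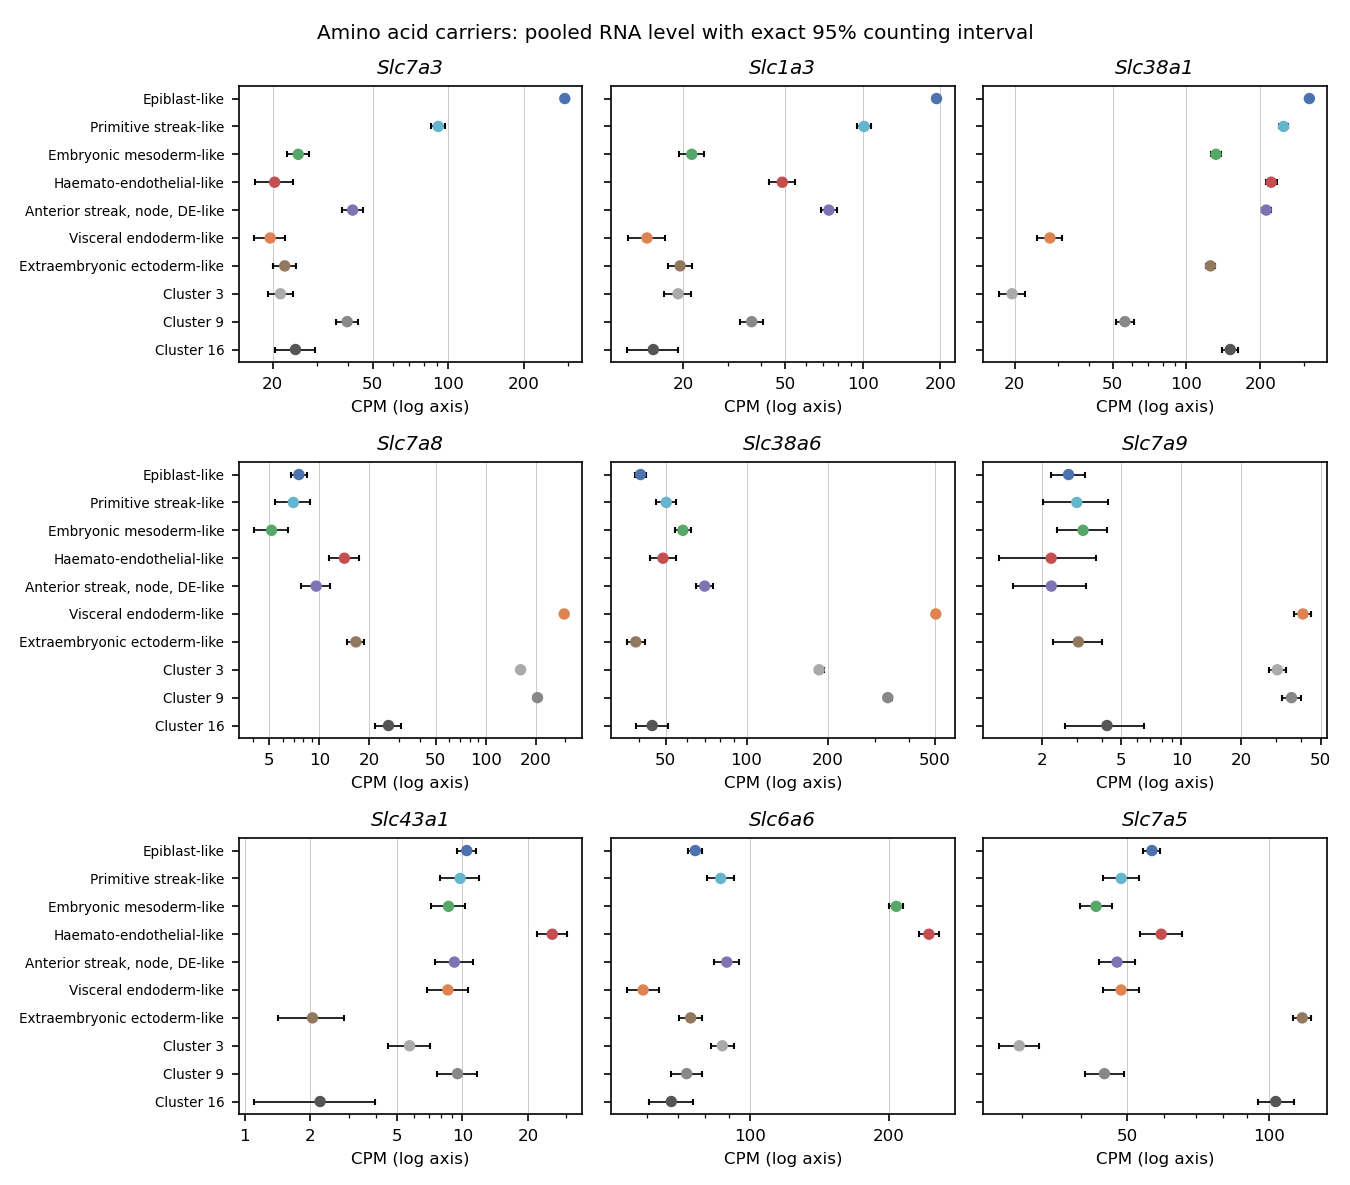
Points give the pooled CPM (log axis) of 9 amino acid carriers in 7 named classes and 3 unnamed clusters, with bars for the exact 95% Poisson interval. Among named classes the top row is highest in epiblast-like nuclei, the middle row in visceral endoderm-like nuclei, and the bottom row in haemato-endothelial progenitor-like (Slc43a1, Slc6a6) or extraembryonic ectoderm-like nuclei (Slc7a5).

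Haemato-endothelial progenitor-like nuclei had Slc43a1, a facilitative carrier of large neutral amino acids, at 25.9 CPM against 2.05 to 10.5 in the other named classes (3.22-fold, interval 2.72 to 3.804). Its relative Slc43a3, a purine nucleobase carrier kept here in the amino acid list with its family, was at 17.9 CPM against 2.37 to 8.303. Slc6a6, the taurine carrier, was higher in both haemato-endothelial progenitor-like (244 CPM) and embryonic mesoderm-like nuclei (207 CPM). Its levels were 58.7 to 89.1 CPM in the other 5 and 183 in cluster 14. For haemato-endothelial progenitor-like nuclei its log2 fold of 1.39 dropped under the call with RNA clusters (0.72), with doublets kept (0.91) and under stricter depth (0.98), and the embryonic mesoderm-like call of Slc6a6 was also lost with doublets kept. In RNA clusters the haemato-endothelial progenitor-like class held 189 nuclei, against 566 here, beside a separate extraembryonic mesoderm-like class of 656. The accessibility class held 828 CPM of the extraembryonic mesoderm list and 1258 of its own, so its calls may belong to either type. With RNA clusters the log2 folds of Slc43a1 (1.69) and Slc43a3 (1.60) rose to 2.81 and 2.56. Slc7a2, the cationic amino acid carrier CAT2, was at 13.02 CPM, with 18.8 in cluster 14, and its call was lost at resolution 2, with RNA clusters, with doublets kept and under stricter depth. Extraembryonic ectoderm-like nuclei had Slc7a5, the large neutral amino acid carrier LAT1, at 118 CPM (2.33-fold, interval 2.21 to 2.45) against 42.99 to 59.1, and Slc15a2, a proton-coupled peptide carrier, at 27.3 CPM. Cluster 16 was close, with 103 CPM of Slc7a5 and 25.8 of Slc15a2. Slc3a2, the heavy chain that Slc7a5, Slc7a7 and Slc7a8 need at the cell surface, was called in no class and ranged from 141 to 235 CPM. Slc38a2, the amino acid carrier with the most UMIs, was at 481 to 634 CPM in the 5 embryonic classes, 346 in extraembryonic ectoderm-like and 237 in visceral endoderm-like nuclei, where it was called lower.

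Only 3 carriers of the neurotransmitter and creatine list reached 1000 UMIs. Slc18a1, a vesicular monoamine carrier, was higher in visceral endoderm-like nuclei at 33.6 CPM (3.15-fold, interval 2.795 to 3.55) against 3.34 to 9.95 in the other named classes and 23.98, 20.5 and 30.5 in clusters 3, 6 and 9. Slc6a8, the creatine carrier, was higher in extraembryonic ectoderm-like nuclei at 15.7 CPM, with embryonic mesoderm-like nuclei next at 11.05, a call lost with doublet calls kept.

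Of 21 metal carriers, 6 were higher in visceral endoderm-like nuclei (Slc39a5, Slc39a8, Slc11a2, Slc39a11, Slc39a4, Slc30a4), 1 in extraembryonic ectoderm-like (Slc40a1) and 1 in epiblast-like nuclei (Slc39a14). The shares of all genes higher in these classes were 8.41%, 5.39% and 5.77%. The calls of Slc30a4 and Slc39a11 were lost at resolutions 0.5 and 2, with RNA clusters, with doublet calls kept and under stricter depth. Slc39a8 was at 266 CPM in visceral endoderm-like nuclei (3.91-fold, interval 3.75 to 4.08) and 263 in cluster 3, then 88.3 in anterior streak-like, 48.4 in haemato-endothelial progenitor-like and 13.1 to 34.2 in the other 4. Slc39a5, a zinc importer, was at 90.1 CPM against 3.48 to 5.68 in the other named classes and 66.8, 60.95 and 74.5 in clusters 3, 6 and 9. Slc39a4, the zinc importer of the gut, was at 32.4 against 4.55 to 7.71. In cluster 3 the level of Slc39a4 was 69.9 CPM. Slc39a14, an importer of zinc and iron, was at 59.4 CPM in epiblast-like nuclei, 43.7 in visceral endoderm-like and 16.3 to 23.7 in the remaining named classes, and its epiblast-like call was lost with doublet calls kept. Slc39a10, the zinc importer with the most UMIs of this group, was lower in visceral endoderm-like nuclei at 49.8 CPM, against 160.5 to 195 in the others.

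Iron carriers were called in several classes. Slc11a2, the divalent metal importer DMT1, was at 68.7 CPM in visceral endoderm-like nuclei (2.52-fold, interval 2.32 to 2.73) and 18.03 to 25.3 in the other named classes, with 46.7, 54.7 and 59.6 in clusters 3, 6 and 9. Slc40a1, the iron exporter ferroportin, was at 70.8 CPM in extraembryonic ectoderm-like nuclei (3.04-fold, interval 2.84 to 3.25), 46.9 in visceral endoderm-like, 16.2 in anterior streak-like and 3.65 to 10.7 in the remaining 4. In cluster 3 it reached 79.03 CPM, while cluster 16 held 19.2. Slc25a37, the mitochondrial iron importer mitoferrin, was called in no class and ranged from 16.6 to 35.6 CPM. Of 15 iron genes outside the carriers, 8 had 1000 UMIs, and in visceral endoderm-like nuclei 2 of those were higher and 2 lower, against 8.41% and 17% of all genes. The higher ones were Trf (transferrin) at 89.99 CPM, 4.68-fold, and Fth1 (ferritin heavy chain) at 1276 CPM, 2.36-fold. The lower ones were the transferrin receptor Tfrc at 31.3 CPM and the ferroxidase Heph at 2.07. Tfrc was higher in extraembryonic ectoderm-like nuclei at 249 CPM, 2.28-fold, the class where Slc40a1 was also called. Heph was higher in epiblast-like (46.1 CPM) and anterior streak-like nuclei (57.1) and lower in extraembryonic ectoderm-like (1.93) and haemato-endothelial progenitor-like nuclei (13.7).

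Of 7 vitamin carriers, Slc23a1, Slc23a2 and Slc46a1 were called higher, each in another class, against 26.2% of all genes in any named class. Slc23a1, the ascorbate carrier of absorptive epithelia, was at 120.0 CPM in visceral endoderm-like nuclei (6.97-fold, interval 6.499 to 7.48), 15.2 in extraembryonic ectoderm-like and 3.34 to 6.48 in the remaining named classes, with 43.7, 63.6 and 71.3 in clusters 3, 6 and 9. Slc23a2, its widely expressed relative, was at 93.3 CPM in epiblast-like nuclei (2.47-fold, interval 2.36 to 2.58), 59.97 in primitive streak-like and 20.1 in visceral endoderm-like nuclei, where it was called lower. With doublets kept, the epiblast-like call of Slc23a2 was lost at a log2 fold of 0.87. Slc46a1, the proton-coupled folate carrier, was at 21.5 CPM in extraembryonic ectoderm-like nuclei (5.89-fold, interval 5.12 to 6.77) and 16.3 in cluster 16, against 2.32 to 3.65 in the other named classes. Slc19a1, the reduced folate carrier, was called in no class and ranged from 14.7 to 33.9 CPM.

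All 3 nucleoside carriers were called higher in a named class, against 26.2% of all genes. Slc28a2, a sodium-coupled concentrative carrier, was at 69.7 CPM in visceral endoderm-like nuclei (6.18-fold, interval 5.64 to 6.76), 7.98 in anterior streak-like and 1.46 to 3.02 in the remaining named classes, with 52.3, 42.5 and 38.9 in clusters 3, 6 and 9. The 2 equilibrative carriers were higher in extraembryonic ectoderm-like nuclei, Slc29a1 at 79.9 CPM (3.75-fold, interval 3.51 to 4.004) against 7.43 to 21.1, and Slc29a2 at 40.1 against 10.5 to 18.97.

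Sulfate and phosphate carriers, 4 in the set, had 2 higher calls, both in visceral endoderm-like nuclei (background 8.41%). Slc13a4 was at 449.5 CPM in visceral endoderm-like nuclei (interval 437 to 463, 7.89-fold) and at 11.99 to 14.5 in the other 6 named classes, with 259 in cluster 9 and 218 in cluster 3. A Slc13a4 UMI was seen in 90.4% of visceral endoderm-like nuclei thinned to 5000 UMIs (99.4% unthinned) and in 5.72% to 7.95% of nuclei in the other named classes, a flat low level. Slc34a2, a sodium-phosphate carrier, was at 14.5 CPM in visceral endoderm-like nuclei and 26.9 in cluster 3. Slc20a1 and Slc20a2, the ubiquitous phosphate importers, were called in no named class, with Slc20a2 between 107 and 136 CPM.

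Among 6 carriers of organic ions, Slc22a23, an orphan of the organic ion family, was at 343 CPM in visceral endoderm-like nuclei (3.93-fold, interval 3.78 to 4.08), 116 in embryonic mesoderm-like and 107 in haemato-endothelial progenitor-like, and was lower in epiblast-like nuclei at 24.9. Slc17a9, the vesicular nucleotide carrier, was at 22.4 CPM in anterior streak-like nuclei (2.41-fold, interval 2.09 to 2.77) and 22.96 in cluster 3. Slc22a17, a lipocalin receptor, was at 27.4 CPM in extraembryonic ectoderm-like nuclei against 3.55 to 15.8 in the other named classes, with 22.2 in cluster 16.

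Of 10 lipid and choline carriers, the choline carrier-like Slc44a1, Slc44a2 and Slc44a4 were higher in extraembryonic ectoderm-like nuclei (background 5.39%). Slc44a1, the choline carrier CTL1, was at 169 CPM, then 92.3 in epiblast-like, 64.6 in primitive streak-like and 30.5 to 53.01 in the other 4. Slc44a2 was at 61.7 CPM (3.63-fold, interval 3.37 to 3.91) and 72.4 in cluster 16, against 7.29 to 24.3 in the other named classes, and Slc44a4 at 18.5 CPM (3.83-fold, interval 3.33 to 4.39) against 1.81 to 8.67. Cluster 16 also held 133 CPM of Slc44a1 and 16.5 of Slc44a4. Their relative Slc44a5 was instead higher in visceral endoderm-like nuclei at 36.5 CPM, with 20.4 in primitive streak-like, 20.7 in embryonic mesoderm-like, 19.5 in anterior streak-like, 8.58 in haemato-endothelial progenitor-like, 5.29 in epiblast-like and 2.52 in extraembryonic ectoderm-like nuclei. Its median embryonic level, 53.5% of the visceral endoderm-like one, was the highest share of the 41 carriers. Slc5a7, the high-affinity choline carrier of cholinergic neurons, was higher in primitive streak-like (15.5 CPM, interval 13.2 to 18.2) and epiblast-like nuclei (14.8 CPM, interval 13.6 to 15.997), levels whose intervals overlapped. The primitive streak-like call was lost with every nucleus weighted equally (log2 fold 0.96) and against other named classes only (0.81), and the epiblast-like call with doublet calls kept. Slc27a2, a fatty acid carrier and very-long-chain acyl-CoA synthetase, was higher in epiblast-like (23.8 CPM, 4.81-fold) and anterior streak-like nuclei (20.9 CPM, 2.25-fold), with 1.14 to 5.56 in the remaining named classes. The anterior streak-like call was lost at resolution 2, with doublet calls kept, under stricter depth and against other named classes only. With doublet calls kept, the epiblast-like log2 fold of 2.27 was 1.54. Slc27a4, a fatty acid carrier, was called higher in no named class and reached 13.9 CPM in cluster 3.

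Carriers of inorganic ions held 3 of the 5 embryonic mesoderm-like calls. Slc4a4, the sodium bicarbonate cotransporter NBCe1, was at 333 CPM in embryonic mesoderm-like nuclei (4.85-fold, interval 4.68 to 5.02), 150.4 in anterior streak-like, 147 in haemato-endothelial progenitor-like, 100.1 in primitive streak-like, 67.6 in epiblast-like, 45.7 in visceral endoderm-like and 12.3 in extraembryonic ectoderm-like nuclei. Slc8a1, the sodium-calcium exchanger NCX1 of heart, was at 98.03 CPM in embryonic mesoderm-like nuclei (3.34-fold), 64.7 in primitive streak-like, 37.97 to 47.2 in the other embryonic classes, and 2.96 and 5.44 in the visceral endoderm-like and extraembryonic ectoderm-like classes. Slc24a3, a potassium-dependent sodium-calcium exchanger, was at 121 CPM in haemato-endothelial progenitor-like (6.42-fold, interval 5.92 to 6.96) and 65.1 in embryonic mesoderm-like nuclei, both called higher (the latter not with doublet calls kept), and 2.81 to 38.99 in the others. Slc9a5, a sodium-proton exchanger, was also higher in haemato-endothelial progenitor-like nuclei, at 19.1 CPM. In cluster 14 the levels were 192 CPM for Slc4a4, 100.4 for Slc8a1 and 57.3 for Slc24a3. Slc8a1 was thus no lower there than in embryonic mesoderm-like nuclei. Visceral endoderm-like calls included the anion exchanger Slc4a2 at 56.97 CPM and the sulfate carrier Slc26a2 at 52.5 CPM. Slc9a7, a sodium-proton exchanger of the Golgi, was at 42.7 CPM in epiblast-like and 34.3 in anterior streak-like nuclei, and Slc4a5, another bicarbonate cotransporter, at 9.52 in epiblast-like. The Slc4a5 call was lost at resolution 2, with RNA clusters and with doublet calls kept. Slc4a7, the bicarbonate carrier with the most UMIs, was lower in visceral endoderm-like nuclei (107 CPM) than in the other named classes (308 to 409), with 163, 193 and 132 in clusters 3, 6 and 9.

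Of 36 mitochondrial carriers, 9 were called higher in a named class, a share near the 26.2% of all genes. Per kilobase of gene span, the highest counts of all 180 carriers were those of Slc25a5 (19086 UMIs per kb) and Slc25a3 (15047), ahead of Slc25a4 (13902), Slc38a2 (6742) and Slc16a1 (3355). Total UMIs also chose the set, and short genes stand high on this scale. Slc25a3, the phosphate carrier, ranged over the named classes from 519 CPM in embryonic mesoderm-like to 776 in extraembryonic ectoderm-like nuclei. Slc25a4, the heart and muscle form of the ADP/ATP carrier, was higher in extraembryonic ectoderm-like nuclei at 601 CPM, with 444 in visceral endoderm-like and 131 to 205 in embryonic classes. Slc25a5, the proliferative form, was at 549.6 in extraembryonic ectoderm-like and 276 to 311 in the other named classes and was not called. Reads from similar copies elsewhere in the genome could be counted with these genes, which was not tested, so their counts are uncertain.

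The mitochondrial carriers higher in visceral endoderm-like nuclei were Slc25a21, Slc25a15, Slc25a44, Slc25a22 and Slc25a10. Slc25a21, which carries oxoadipate from lysine and tryptophan breakdown, was at 158 CPM (4.59-fold, interval 4.34 to 4.86) and still more in cluster 3 at 181, against 1.39 to 8.45 in other named classes. Slc25a15, the ornithine carrier of the urea cycle, was at 42.1 CPM, Slc25a44, a branched-chain amino acid carrier, at 32.2, the glutamate carrier Slc25a22 at 52.9, and the dicarboxylate carrier Slc25a10 at 37.6, a call lost at resolution 0.5. Extraembryonic ectoderm-like nuclei had Slc25a12, the aspartate-glutamate carrier aralar, at 46.4 CPM against 30.9 in visceral endoderm-like nuclei and 6.87 to 13.3 in embryonic classes, with 59.7 in cluster 16, and Slc25a20, the carnitine-acylcarnitine carrier, at 34.6. Cluster 16 held 29.7 CPM of Slc25a20. The second aspartate-glutamate carrier, Slc25a13, had its highest named level in visceral endoderm-like nuclei at 245 CPM, with no call. Slc25a27, an uncoupling protein family member, was higher in epiblast-like nuclei at 63.4 CPM and lower in visceral endoderm-like at 7.49. The epiblast-like calls of Slc25a27 and of Slc35f2, described next, were lost with doublet calls kept.

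Nucleotide sugar carriers bring activated sugars into the Golgi and endoplasmic reticulum. Of 22 such and related members, 6 were called higher in a named class, a share near the 26.2% of all genes. The other 16 were called higher in none, though 1 of these, Slc35b3, was called in cluster 3 at 70.3 CPM. Slc35b1, the one with the most UMIs, lay in the named classes between 60.2 and 73.9 CPM. Slc35d3 had, against all other nuclei, the largest fold of any carrier in a named class, at 48.6 CPM in epiblast-like nuclei (17.5-fold, interval 15.5 to 19.9) and 1.08 to 6.08 in the other named classes. That fold moved from a log2 of 4.13 to 2.69 at clustering resolution 2 and to 2.30 with doublets kept. Against other named classes only it was 4.10, under the 5.07 of Slc13a4 in visceral endoderm-like nuclei. Slc35f1 was at 77.2 CPM in epiblast-like nuclei (5.13-fold), 48.8 in primitive streak-like and 4.73 to 29.99 in the remaining named classes, and Slc35f2 at 66.3 in epiblast-like, 48.8 in extraembryonic ectoderm-like, 37.96 in primitive streak-like and 10.96 to 30.5 in the remaining named classes. Slc35f6, Slc35b4 and Slc35g1 were higher in visceral endoderm-like nuclei at 38.7, 38.7 and 36.2 CPM, the Slc35b4 call being lost at resolution 0.5. Of 5 members in no substrate list, the mitochondrial calcium exchanger Slc8b1 was higher in visceral endoderm-like nuclei (41.6 CPM), Slc9b1 in extraembryonic ectoderm-like (12.2 CPM, lost with doublet calls kept), and Slc22a14, Slc18b1 and Slc49a4 were called higher in no named class. Cluster 16 held more Slc9b1, at 17.96 CPM.

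Clusters 3 and 9, which have visceral endoderm genes in the lead, were each set against the visceral endoderm-like class. Of the carriers, 17 were lower in cluster 3 than in visceral endoderm-like nuclei (9.44%, background 3.63%) and 11 were higher (6.11%, background 7.23%). Among the lower ones were Slc2a2 (0.245-fold of the visceral endoderm-like level), Slc13a4 (0.484), Slc23a1 (0.364) and Slc38a6 (0.368), and among the higher ones Slc39a4 (2.16-fold), Slc17a9 (4.48) and Slc29a1 (2.60). Cluster 9 had no carrier lower than visceral endoderm-like nuclei (background 0.0983%) and 10 higher (5.56%, background 4.9%). Those 10 included Slc35d3, Slc35f1, Slc6a15, Slc1a3, Slc38a1 and Slc7a3, which were highest among the named classes in epiblast-like nuclei. They also included Slc24a3 and Slc8a1, highest in haemato-endothelial progenitor-like and embryonic mesoderm-like nuclei. The epiblast marker list summed to 767 CPM in cluster 9 and 626 in visceral endoderm-like nuclei. The embryonic mesoderm list summed to 282 and 167 CPM, and the anterior ectoderm list to 172 and 89.9. The part of mixed droplets in these values was not tested. Against extraembryonic ectoderm-like nuclei, cluster 16 had 1 carrier higher (Slc7a1, background 1.88%) and 5 lower (Slc40a1, Slc4a4, Slc7a2, Slc22a23, Slc29a1, background 4.31%).

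Direct comparison of the 2 extraembryonic epithelia put 50 carriers lower in extraembryonic ectoderm-like than in visceral endoderm-like nuclei (27.8%, background 13.7%) and 26 higher (14.4%, background 13%). From epiblast-like to embryonic mesoderm-like nuclei, 25 carriers were lower in the mesoderm (13.9%, background 7.74%) and 10 higher (5.56%, background 4.77%). The lower ones included Slc2a1 (0.3404-fold of the epiblast-like level), Slc7a3 (0.0866) and Slc23a2 (0.327), and the higher ones Slc4a4 (4.93-fold), Slc5a3 (4.71) and Slc6a6 (2.72). Between epiblast-like and primitive streak-like nuclei, 7 carriers were higher in epiblast-like (Slc27a2, Slc35d3, Slc39a14, Slc37a1, Slc25a23, Slc9a7, Slc7a3, background 1.64%) and 1 lower (Slc44a5, background 1.55%).

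Promoter accessibility was read in a separate set of classes, built from RNA with every Slc gene left out, so that peaks did not define them. The visceral endoderm-like class defined this way held 1655 nuclei. Of 180 carriers, 171 had a peak at a start, and 16 of those (9.36%) had a promoter at least 2-fold more accessible in some class, against 5.96% of all genes. Visceral endoderm-like nuclei had 11 (background 1.98%): Slc23a1, Slc28a2, Slc7a8, Slc7a9, Slc39a4, Slc16a9, Slc39a8, Slc34a2, Slc13a4, Slc25a21 and Slc7a7. The fold was 13.7 (interval 12.1 to 15.5) for Slc23a1, 5.61 for Slc28a2, 3.35 for Slc7a8 and 2.24 (interval 1.99 to 2.52) for Slc13a4. Extraembryonic ectoderm-like nuclei had 3 (background 1.22%): Slc44a4 at 3.64 (interval 3.24 to 4.09), Slc40a1 at 2.78 (interval 2.601 to 2.96) and Slc25a18, whose RNA was not higher there. Promoters at least 2-fold less accessible numbered 10 in visceral endoderm-like nuclei (background 5.98%) and 15 in extraembryonic ectoderm-like nuclei (6.71%). Giant cell and ectoplacental cone-like nuclei had 0 higher (background 1.51%) and 18 lower (7.84%). Lower promoters in the remaining classes numbered 2 in epiblast-like (background 1.4%), 2 in primitive streak-like (1.16%), 6 in embryonic mesoderm-like (1.62%), 5 in extraembryonic mesoderm-like (1.58%), 4 in haemato-endothelial progenitor-like (1.47%) and 2 in anterior streak-like nuclei (0.93%). Epiblast-like nuclei had 2 (background 1%): Slc7a3 at 2.64 (interval 2.31 to 3.03) and Slc27a1, whose RNA was not called. With doublet calls kept, the promoter calls numbered 7 in visceral endoderm-like and 0 in epiblast-like nuclei, and stricter depth also gave 0 in the latter. The primitive streak-like, 2 mesoderm-like, haemato-endothelial progenitor-like and anterior streak-like classes had 0, against backgrounds of 0.0921%, 0.405% (embryonic) and 0.239% (extraembryonic mesoderm), 0.368% and 0.175%.

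The direction of the promoter fold was counted for carriers with higher RNA, whatever its size. Of 40 carriers with higher RNA in visceral endoderm-like nuclei and a promoter peak, 37 (92.5%) had a promoter fold above 1 and 33 an interval above 1. Over all genes with a promoter peak 74.3% lay above 1 in this class, and of the 906 genes with higher RNA 89.8% did. Slc44a5 (0.594-fold) and Slc25a22 (0.875-fold) had intervals below 1, while Slc38a6, at 5.85-fold in RNA, had a promoter fold of 1.003 (interval 0.915 to 1.097). In epiblast-like nuclei 13 of 14 were above 1, against 91.4% of all genes with higher RNA, with Slc35f2 below at 0.898. In extraembryonic ectoderm-like nuclei 11 of 17 were above 1 (64.7%, against 85.6% of all genes with higher RNA) and 4 had intervals below it: Slc22a17 (0.599), Slc25a4 (0.865), Slc29a2 (0.883) and Slc15a2 (0.245, interval 0.0497 to 0.732). Slc46a1, with the largest RNA fold of that class, had a promoter fold of 1.13 (interval 0.978 to 1.304). Across carriers, Spearman's rho between RNA and promoter log2 folds was 0.580 in visceral endoderm-like nuclei (161 carriers), 0.472 in extraembryonic ectoderm-like (164) and 0.448 in epiblast-like (171), beside 0.428, 0.428 and 0.296 for all genes. The genes share their libraries and nuclei, so these values are descriptions.

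**Figure D5:**
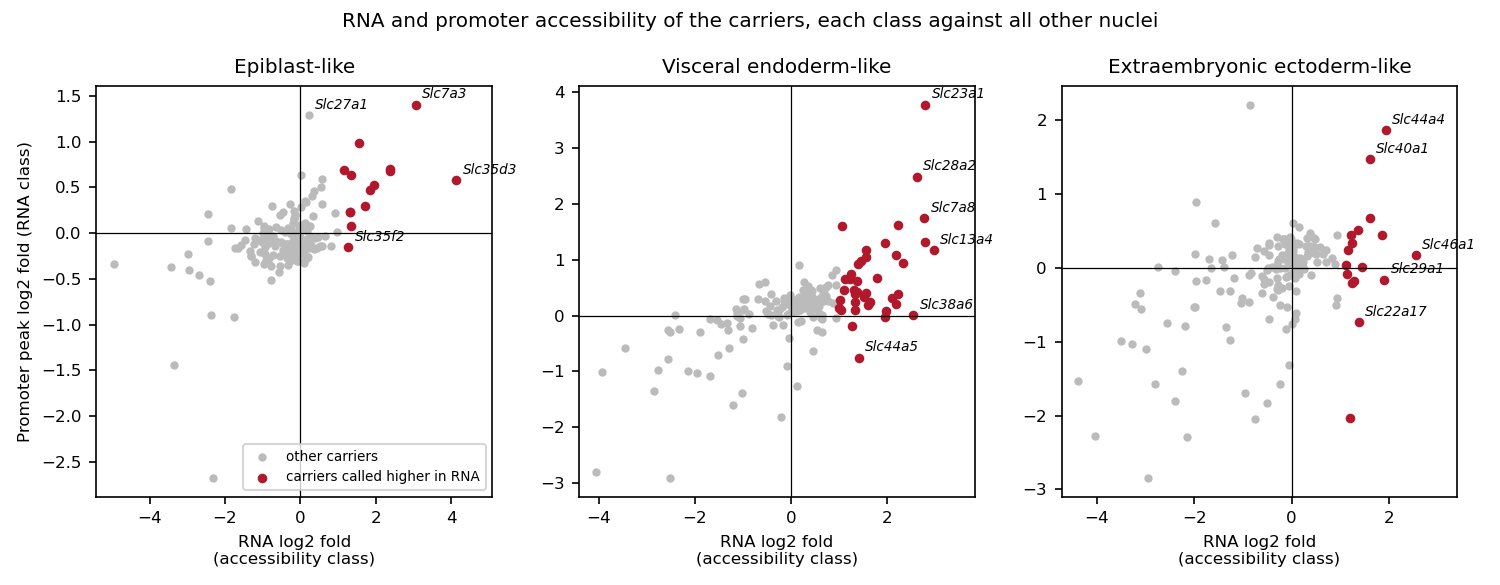
Each point is a carrier, with its RNA log2 fold in the accessibility class (horizontal) and its promoter peak log2 fold in the RNA class of the same name (vertical), each against all other nuclei, and red points are called higher in RNA. In the visceral endoderm-like panel 37 of 40 red points lie above 0, and in the extraembryonic ectoderm-like panel 11 of 17 do.

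The 6 motifs searched in promoters, on both strands, were short cores of known motifs. HNF1 was searched with GTTAAT, HNF4 with AAAGTCC, the GATA factors with AGATAA, TEAD factors with GGAATG, the E-box with CACGTG and NF-Y with CCAAT. RefSeq gave 184 promoter windows of 250 bases for 137 of the 180 carriers, and 46 windows for those higher in visceral endoderm-like nuclei, several of which share a gene. Of those 46, 10 held GGAATG (21.7%, against 12.6% of all 32851 windows), 4 held GTTAAT (8.70% against 6.43%), 2 held AAAGTCC (4.35% against 3.58%), 5 held AGATAA (10.9% against 9.99%), 4 held CACGTG (8.70% against 6.02%) and 10 held CCAAT (21.7% against 33.8%). Over the 184 windows of all carriers the shares were 14.7%, 3.26%, 4.89%, 7.61%, 12.5% and 32.6% in the same order. For AAAGTCC and CACGTG these were above the shares of the 46. A match is a run of letters in the window, as in the Slc13a4 and Slc39a8 promoters shown above, and says nothing about binding.

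Transport genes outside the set are given for comparison. Of 30 ATP-binding cassette transporters, 16 had 1000 UMIs. In visceral endoderm-like nuclei 5 of those were higher and 3 lower (Abca4, Abcc8 and Abcc1), against 8.41% and 17% of all genes. The higher ones were led by Abcc2, an apical exporter of conjugates, at 539 CPM (10.01-fold, interval 9.66 to 10.4), and Abca3, a phospholipid transporter, at 83.1 CPM (6.89-fold, interval 6.33 to 7.49). Of 12 carriers with other kinds of symbol, 6 were higher there and 1, Slco5a1, was lower, against the same 8.41% and 17% of all genes. The higher ones were led by Spns2, a sphingosine 1-phosphate exporter, at 26.9 CPM (6.26-fold) and Slco4c1, an organic anion carrier, at 136 CPM (6.03-fold).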

How the data were processed

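RNA and accessible chromatin were measured together in 2 libraries, 1 per assay, from the same nuclei. Per the file headers and the submitters' processing notes, the deposited matrix was made with Cell Ranger ARC 2.0.0 on mm10 and holds whole-number UMI counts per gene and counts per peak for 15341 barcodes (182201512 UMIs and 273131304 peak counts). Aligner, strand and intron settings and the peak caller's settings are not given in the sources used here, so reads of overlapping or antisense genes cannot be told apart. The deposited feature and barcode lists hold other values: positions and names.

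Nuclei were kept from 1000 UMIs, 500 genes and 1000 peak counts upwards, if mitochondrial genes took no more than 20%. Scrublet marked 1154 barcodes (7.52%) as doublets, which were left out. Clusters (scanpy 1.11.5, leidenalg 0.10.2, 15 neighbours, resolution 1) came from TF-IDF and singular value decomposition of the peaks, or from 30 principal components of 2000 variable genes with every Slc gene left out. A cluster took the name of the marker list with the highest mean log2 fold, if that mean was at least 0.5 with at least 3 markers raised 1.5-fold. It stayed unnamed where another list had more genes among its top 10, or had 3 raised markers, a mean above 0.5 of the leading one and as many top genes, or where its depth was low with no marker on top. That naming rule was set after the data were seen, and members and lists were chosen with earlier results of these data known. CPM are pooled UMIs of a class scaled to 1000000. Intervals are exact Poisson, or conditional binomial for folds, from the counts. Promoter peaks lay within 1000 bases before to 100 after a start, and their intervals used counts divided by 2. Sequences are from RefSeq. The calling step was tested on simulated counts.

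The genes described by name were the 4 largest folds of each class, the carrier with the most UMIs of each substrate list, and carriers picked for their known roles. Other called genes were named after their values were seen, and a few carriers are not reported here. Alternatives were resolutions 0.5 and 2, RNA clusters for the RNA values, doublet calls kept, stricter depth, equal weight per nucleus, the deepest nucleus left out, named classes only as reference, no UMI minimum, a 3-fold threshold, and a wider promoter window.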

Additional observations from a re-analysis of the deposited data

How the results depend on the processing

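Both assays rest on 1 library of pooled nuclei, so no result has a replicate check, and depth limits calls to carriers with enough UMIs in a class. Of the counts and correlations under the alternatives, 131 stayed within 1.5 times the count or 0.1 of rho and 21 moved. Of the single carriers' values, which count as moved outside their counting interval, 239 stayed and 174 moved, with no change of sign among the named carriers' calls. With a 3-fold threshold the carriers higher in at least 1 class numbered 39, those in visceral endoderm-like nuclei 19, epiblast-like 8, extraembryonic ectoderm-like 6, haemato-endothelial progenitor-like 3, and primitive streak-like and anterior streak-like 0. With doublet calls kept, epiblast-like nuclei had 8 and anterior streak-like 6, and promoters higher numbered 7 in visceral endoderm-like and 0 in epiblast-like nuclei. Stricter depth gave 6 carriers in anterior streak-like nuclei, 0 epiblast-like promoters, and a Spearman's rho of 0.0937 for anterior streak-like nuclei in place of 0.381. Against other named classes only, anterior streak-like nuclei had 1 and primitive streak-like 0. Primitive streak-like nuclei had 0 with equal weight per nucleus and 1 without the nucleus with the most UMIs of the gene. The wider promoter window gave 1 promoter each in epiblast-like and haemato-endothelial progenitor-like nuclei, and resolution 0.5 a rho of 0.532 in place of 0.409 in the latter. The causes of these moves were not tested. Classes defined by RNA shared 39 of the 41 visceral endoderm-like calls, all 17 extraembryonic ectoderm-like, 14 of 15 epiblast-like and all 5 embryonic mesoderm-like calls. They shared 4 of 6 haemato-endothelial progenitor-like, 2 of 3 anterior streak-like and 1 of 2 primitive streak-like calls. At resolution 2, with doublet calls kept and under stricter depth, 1 of the 3 anterior streak-like calls was shared. Both assays read the same nuclei, but with 1 library per assay no samples could be paired across conditions or replicates.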
